A study of Mus musculus with 3 samples.

Results

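Cycling cells of the adult mouse ventricle were described here across all lineages of non-cardiomyocytes (non-CMs). A cell was counted as cycling when it held at least 3 unique molecular identifiers (UMIs, each standing for 1 captured mRNA molecule) summed over Top2a, Mki67, Birc5, Cdk1 and Ccnb2, and 108 of 6915 cells did so. Each cell was placed in the lineage with the largest marker sum. The sums were Pecam1, Cdh5, Kdr and Egfl7 for endothelial cells (ECs), Col1a1, Col1a2 and Pdgfra for fibroblasts (FBs), Ptprc, Tyrobp and C1qa for blood cells, and Myh11, Rgs5 and Vtn for mural cells. Of the 108 cells, 54 were ECs, 36 were blood cells, 14 were FBs and 2 were mural cells, and 2 had no lineage because their sums were tied or at 0. The cells were chosen by the UMIs of these 5 genes, so the levels of these genes, and those of every gene set beside them, are a description.

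The study followed hearts under transverse aortic constriction (TAC), a surgical narrowing of the aortic arch that loads the left ventricle with pressure. All animals were wild-type C57BL/6J JCL mice, and the study's methods give 8-week-old males for the surgery. The healthy library came from hearts without TAC (0 weeks), the adaptive hypertrophy library from hearts 2 weeks after it and the heart failure library from hearts 12 weeks after it. There was 1 library per phase, the sources used here do not say how many hearts each held, and atria were cut away before collagenase digestion and a Percoll gradient. A difference between phases therefore has no replicate check, and phase cannot be told apart from library. With surgery at 1 age, the mice at 12 weeks were also older than those at 2 weeks, so phase cannot be told apart from age either.

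A dividing cell copies its DNA in S phase and separates the copies in mitosis (M), with a gap (G2) in between. Top2a untangles the DNA copies, Mki67 coats the mitotic chromosomes, Birc5 belongs to the chromosomal passenger complex, and Cdk1 with its partner Ccnb2 drives entry into mitosis. Transcripts of such genes peak in G2 and M and are low in resting cells, so a rule built on them favours cells late in the cycle. In the adult heart most ECs and FBs are thought to rest, and resident macrophages are known to renew themselves by local division.

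Genes of G2 and M are classically controlled through a CCAAT box together with a cell cycle homology region (CHR), and genes of S phase through sites for E2F factors. The 150 bases before the annotated start are printed here for the 5 genes that chose the cells and for Ube2c, Nusap1, Prc1 and Cenpf, which were among the 10 largest ratios in both ECs and blood cells. The sequences are from RefSeq (GRCm38.p6), read 5′ to 3′ on the strand of the gene, and capitals mark 3 kinds of motif on either strand. A CCAAT box on the other strand reads ATTGG. The CHR was searched as TTTGAA, which on the other strand reads TTCAAA, and also in the palindromic form TTCGAA. The letters searched for E2F are named after the sequences.
Top2a, chr11:99024190-99024339, minus strand: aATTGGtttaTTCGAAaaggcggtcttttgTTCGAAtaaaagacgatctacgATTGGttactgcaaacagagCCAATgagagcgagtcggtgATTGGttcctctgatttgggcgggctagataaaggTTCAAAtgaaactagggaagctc
Mki67, chr7:135716380-135716529, minus strand: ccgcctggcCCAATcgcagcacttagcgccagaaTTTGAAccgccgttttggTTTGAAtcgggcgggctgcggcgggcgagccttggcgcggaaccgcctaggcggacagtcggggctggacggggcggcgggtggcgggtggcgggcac
Cdk1, chr10:69352913-69353062, minus strand: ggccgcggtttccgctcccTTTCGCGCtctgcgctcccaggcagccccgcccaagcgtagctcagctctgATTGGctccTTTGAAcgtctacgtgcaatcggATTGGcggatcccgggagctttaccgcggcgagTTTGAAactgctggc
Ccnb2, chr9:70421555-70421704, minus strand: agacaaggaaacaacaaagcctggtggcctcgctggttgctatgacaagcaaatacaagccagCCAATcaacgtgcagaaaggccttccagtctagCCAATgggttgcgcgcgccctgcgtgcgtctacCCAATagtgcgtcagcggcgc
Birc5, chr11:117849087-117849236, plus strand: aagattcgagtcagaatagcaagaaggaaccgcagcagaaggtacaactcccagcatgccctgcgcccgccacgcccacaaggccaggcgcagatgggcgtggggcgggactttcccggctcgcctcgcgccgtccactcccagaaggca
Ube2c, chr2:164769779-164769928, plus strand: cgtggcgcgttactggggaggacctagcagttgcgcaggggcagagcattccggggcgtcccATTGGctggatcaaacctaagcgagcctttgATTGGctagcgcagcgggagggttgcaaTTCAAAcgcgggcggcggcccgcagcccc
Nusap1, chr2:119618148-119618297, plus strand: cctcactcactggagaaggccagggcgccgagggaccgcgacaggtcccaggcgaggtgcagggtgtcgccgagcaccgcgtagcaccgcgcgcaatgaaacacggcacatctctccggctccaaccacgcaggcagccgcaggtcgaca
Prc1, chr7:80294301-80294450, plus strand: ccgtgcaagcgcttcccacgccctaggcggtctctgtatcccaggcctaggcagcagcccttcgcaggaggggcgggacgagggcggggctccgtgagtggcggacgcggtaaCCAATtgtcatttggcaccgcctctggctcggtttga
Cenpf, chr1:189688087-189688236, minus strand: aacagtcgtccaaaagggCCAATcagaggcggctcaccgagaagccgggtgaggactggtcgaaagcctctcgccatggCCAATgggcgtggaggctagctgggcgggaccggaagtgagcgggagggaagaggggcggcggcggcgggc

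The Top2a window held 4 CCAAT boxes and 3 CHR motifs. The nearest of these CHR motifs read TTCAAA and began 23 bases before the start. In the Cdk1 window 2 CCAAT boxes, 2 CHR motifs and the E2F letters TTTCGCGC were found. The Mki67 window held 1 CCAAT box and 2 CHR motifs, and that of Ube2c, an enzyme that hands ubiquitin to the anaphase-promoting complex, 2 CCAAT boxes and 1 CHR motif. The windows of Ccnb2 and Cenpf held 3 and 2 CCAAT boxes with no CHR letters. The printed window of Prc1 held 1 CCAAT box, and an overlapping window from a further Prc1 start in RefSeq held 1 CCAAT box and 1 CHR motif. The windows of Birc5 and Nusap1 held 0 motifs of any of the 3 kinds. Among 27025 genes with a promoter entry, 27.7% held CCAAT in a window of the same length on either strand, 11.2% held a CHR motif and 2.85% held both. Of 51 genes on a G2 and M list from which the 5 genes were left out, 42 had an entry, and 73.8% of these held CCAAT, 35.7% a CHR motif and 31.0% both. Letters of E2F type (TTTCCCGC, TTTCGCGC, TTTGCCGC or TTTGGCGC) were found for 1.44% of the 27025 genes. The shares were 2.38% of the 42 G2 and M genes and 22.6% of the 31 S phase genes with an entry. CCAAT was also frequent on the S phase list, at 64.5%, and on a list of replication licensing and fork genes, at 61.8% of 34 genes with an entry, whereas a CHR motif was found in 16.1% and 8.82% and both in 6.45% and 2.94%. For 15 immediate early genes, 13 of which had an entry, 38.5% held CCAAT, 7.69% a CHR motif and 0% both. With 13 genes, this 0% cannot be told apart from the 2.85% of all genes. A match is a run of letters and not a tested site, and a window without a match says nothing of the factor.

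The healthy library held most of the cycling cells. They numbered 87 of 3892 cells there, or 2.24% with an exact (Clopper-Pearson) 95% interval of 1.79 to 2.75%. At 2 weeks of TAC they were 18 of 2231 cells, or 0.807% (0.479 to 1.27%), and at 12 weeks 3 of 792 cells, or 0.379% (0.0782 to 1.10%). The intervals of the healthy and the 2-week library did not overlap. All intervals given here cover counting error only, and no test between phases was possible with 1 library each. The kept cells summed to 12287823, 4465929 and 1712728 UMIs in order of time, with medians of 2589, 1495 and 1434 UMIs per cell, so the depth of the libraries moved with the share of cycling cells. Between pairs of libraries 5, 1 and 3 cell barcodes were shared, and 0 cycling cells were among them.

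ECs line the vessels, and 42 of 1155 healthy ECs were cycling, a share of 3.64% (2.63 to 4.88%). At 2 weeks the share was 0.671% (12 of 1789 cells, 0.347 to 1.17%), and the 2 intervals did not overlap. At 12 weeks 0 of 329 ECs were cycling. Reading a count of 0 as up to 3 cells, this allows a share of up to 0.912%, and the exact interval reaches 1.11%. Among blood cells, the share was 3.46% in the healthy heart (33 of 953, 2.40 to 4.83%). It was 0.532% at 2 weeks (1 of 188, 0.0135 to 2.93%) and 1.65% at 12 weeks (2 of 121, 0.201 to 5.84%). Both later intervals overlapped the healthy one. FBs, which lay down the collagen matrix, were cycling in 0.794% of healthy cells (10 of 1260, 0.381 to 1.46%) and in 3.42% of cells at 2 weeks (4 of 117, 0.939 to 8.52%). The 2 FB intervals overlapped, and 0 of 199 FBs were cycling at 12 weeks, which allows up to 1.51% by the limit of 3 cells and 1.84% by the exact interval. Mural cells, the pericytes and smooth muscle cells of the vessel wall, gave 2 of 463 in the healthy library and 0 of 85 and 0 of 48 later.

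When each cell was thinned to 1000 UMIs and shallower cells were left out, the healthy EC share was 2.08% (24 of 1155) and the 2-week share 0.229% (3 of 1310). The intervals of these 2 shares did not overlap. Thinning left out 479 of the 2-week and 0 of the healthy ECs, so the libraries were matched in UMIs per kept cell and not in which cells were kept. Healthy blood cells came to 1.26% (12 of 953), against 0.704% at 2 weeks (1 of 142) and 1.33% at 12 weeks (1 of 75), and these intervals overlapped. FBs came to 0.476% (6 of 1260) and 1.15% (1 of 87) at 0 and 2 weeks. Of the whole libraries, 1.08%, 0.308% and 0.382% were cycling after thinning.

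**Figure D1:**
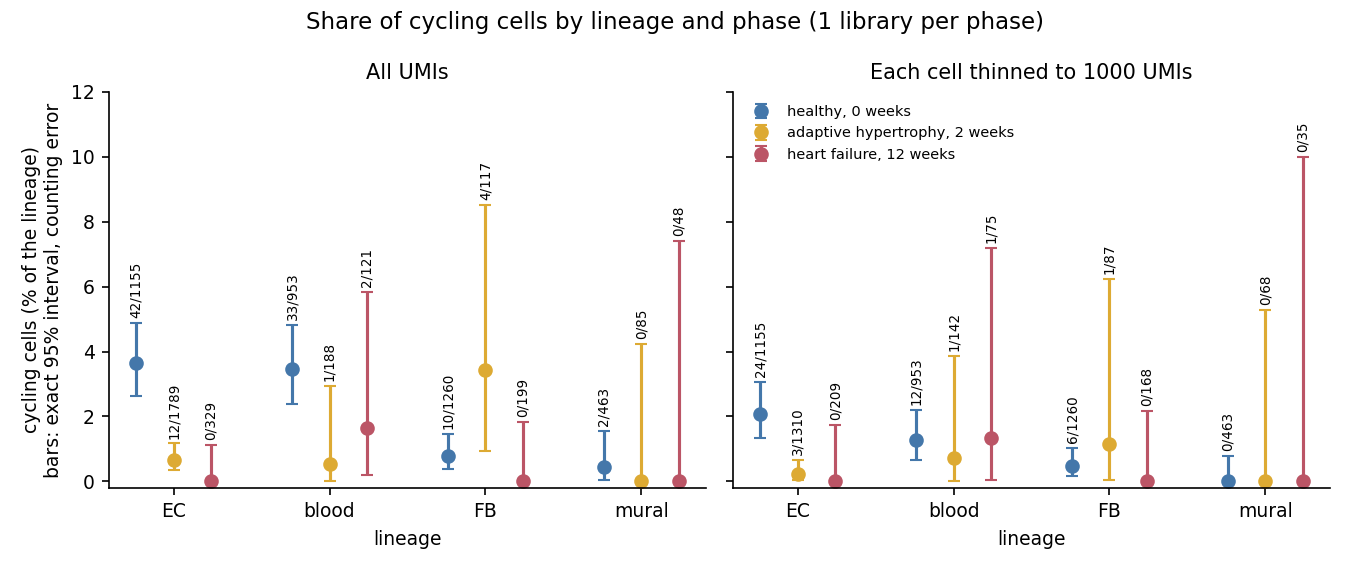
Share of cycling cells (vertical axis, % of the lineage) for each lineage (horizontal axis) and phase (colour), with all UMIs on the left and after thinning each cell to 1000 UMIs on the right. Points are shares, bars are exact 95% intervals for counting error and the text beside each bar gives cycling cells over all cells, with the healthy EC point (3.64% on the left, 2.08% on the right) above the interval of the 2-week ECs in both panels.

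The rule drew a line through a sparse signal. Of all cells, 6590 held 0 UMIs of the 5 genes, 188 held 1 and 29 held 2, and among the cycling cells 21 held exactly 3, 10 held 4 and 53 held 10 or more. The 29 cells just outside had a median of 3428 UMIs, with medians of 11 UMIs from the G2 and M list (49 genes in the file) and 2 UMIs from the S phase list (43 genes). The 21 cells just inside had a median of 2632 UMIs, with medians of 14 and 4 UMIs from these lists, from fewer UMIs in all. Top2a was found in 86 of the 108 cells, Mki67 in 80, Birc5 in 80, Cdk1 in 76 and Ccnb2 in 66. All 5 genes were found in 33 cells and at least 4 of them in 61, and 4 cells passed on 1 gene alone.

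The strength of the signal differed between groups of cycling cells. Healthy FBs had a median of 22 UMIs of the 5 genes (5 to 48, 10 cells), healthy ECs 11.5 (3 to 32, 42 cells) and healthy blood cells 8 (3 to 27, 33 cells). ECs at 2 weeks had a median of 5.5, and 4 of the 12 held exactly 3. Of the 4 FBs at 2 weeks, 3 held exactly 3 UMIs, 2 had over 10% mitochondrial UMIs and the median mitochondrial share was 15.4%. The FB share at 2 weeks thus rested on 1 cell with 13 UMIs of the 5 genes and 3 cells at the threshold. In blood cells Mki67 was found in 88.9% of the 36 cycling cells, Cdk1 in 52.8% and Ccnb2 in 47.2%, whereas Cdk1 was found in 13 of 14 FBs.

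Both mural cells stood at the threshold. They held exactly 3 UMIs of the 5 genes, none from Mki67, Birc5 or Ccnb2, and also 22 and 4 UMIs of the EC marker sum. Their G2 and M list levels were 6.63 and 11.2 UMIs per 10000, against a median of 8.48 in the other mural cells, within the range of cells that did not pass the rule. Across the 108 cells, 11 held at least 3 UMIs of a second lineage sum. Of these, 4 were ECs, 2 FBs, 2 blood cells, the 2 mural cells and 1 cell with tied sums. The share of such cells that were doublets was not tested.

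Genes that were not used to choose the cells followed the same line in the medians of ECs, FBs and blood cells, though not in every cell. The G2 and M list had a median of 132 UMIs per 10000 in cycling ECs and 9.76 in the other ECs. In FBs the medians were 173 and 9.28, and in blood cells 85.4 and 8.99. The S phase list had medians of 23.5 and 5.52 in ECs, 15.4 and 4.16 in FBs and 12.1 and 3.18 in blood cells. In 101 of the 108 cells more UMIs came from the G2 and M list than from the S phase list. Of the 7 with more S phase UMIs, 3 were ECs and 2 blood cells. In the reverse direction, 6 cells that did not pass the rule reached the cycling cells' median G2 and M level of 110.3 per 10000, and 2 of these held 0 UMIs of the 5 genes.

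**Figure D2:**
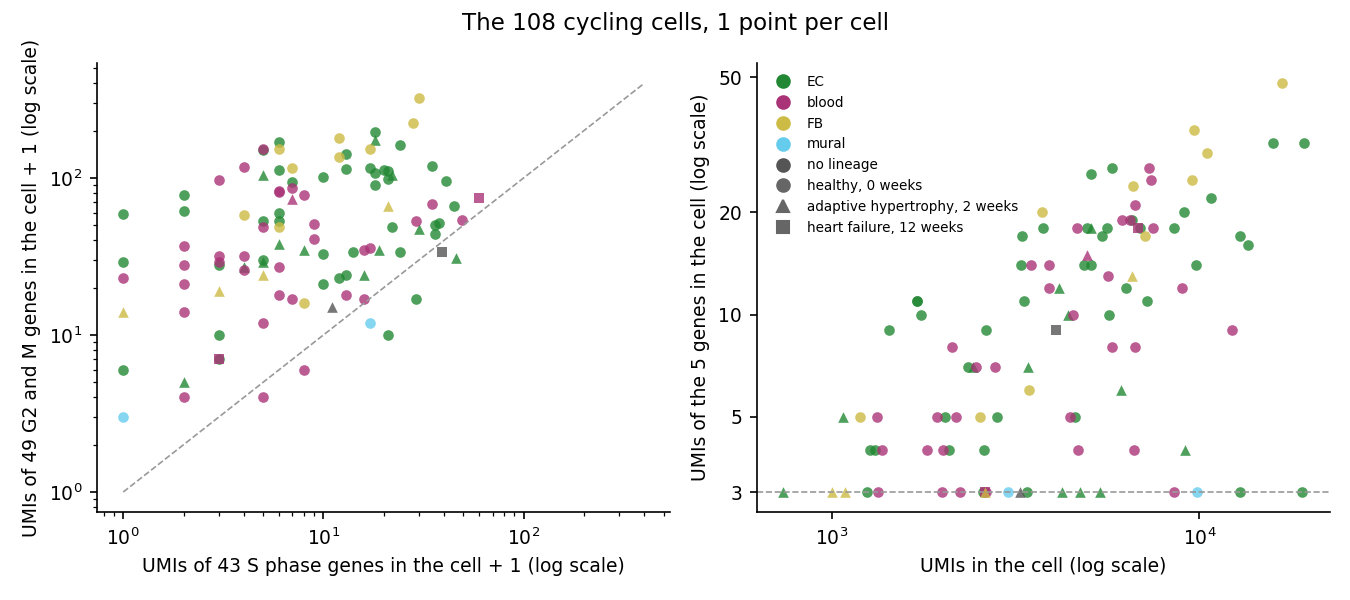
Each point is 1 of the 108 cycling cells, coloured by lineage and shaped by phase. The left panel sets UMIs of the G2 and M list against UMIs of the S phase list, each with 1 added and on log axes, with a dashed line of equality that 101 cells exceed, and the right panel sets UMIs of the 5 genes against all UMIs of the cell on log axes, with the threshold of 3 dashed.

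Cycling cells were also larger in RNA content as sampled. Healthy cycling ECs had a median of 4914 UMIs and the other healthy ECs 2207, blood cells 4454 and 2616, and FBs 6854 and 2932. At 2 weeks the EC medians were 4314 and 1480. A cell with more UMIs has more chances to reach 3 UMIs of the 5 genes, and how far this raised the medians was not tested.

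The cycling cells held 3.09% of all UMIs. Of the transcripts with at least 30 UMIs outside the 5 genes, those lying most in these cells were Depdc1a at 94.6% of its UMIs, Ska1 at 94.4%, Kif2c at 93.8%, Hmmr at 93.0%, Pbk at 92.1%, Ube2c at 90.1%, Nek2 at 89.7%, Esco2 at 88.1%, Casc5 at 88.1% and Cdca3 at 87.9%. Ska1 and Casc5 are kinetochore proteins, Kif2c and Hmmr act on spindle microtubules, and Esco2 acetylates cohesin. Of 423 UMIs of Ube2c in all libraries, 381 were in 71 cycling cells. The 5 genes themselves ranged from 79.1% (Cdk1) to 88.7% (Birc5). The 10 were taken as the highest shares, so they are not compared with the 5.

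In ECs, 54 cycling cells were set against 2890 others of the healthy and 2-week libraries. As a share of all UMIs, genes of the spindle, of chromatin and of nucleotide synthesis were higher in cycling ECs. The shares of the capillary, arterial and venous genes were lower, which does not give their amount per cell. Values are a gene's UMIs summed over cells and scaled to CPM. For the other ECs, the CPM of each library was taken and the 2 were averaged. The weights were the total UMIs of the cycling ECs, 250409 in the healthy and 50859 in the 2-week library. Ratios are common to both libraries, with exact 95% intervals. Of 3079 genes at 50 CPM or more on average, 201 had a ratio of at least 2 (6.53%) and 90 a ratio of at most 0.5 (2.92%), and the median log2 ratio was 0.045. Of the 201 genes, 84 were on the cell cycle lists, as against 3 of the 90, beside 127 of all 3079 genes counted. Genes that are nearly absent from resting cells reach 50 CPM only through the cycling ECs, so that the first of these counts had to lean this way. The cell cycle lists are therefore described by the UMIs of all their members in the file. Over all 15731 genes outside the 5 with a UMI in these ECs, 39.2% had the higher level in cycling ECs.

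The 10 genes with the largest ratios included several of the kinetochore and spindle. Cenpf, a protein of the outer kinetochore, was at 541 CPM in cycling and 2.72 CPM in other ECs, a ratio of 176 (105 to 314), and 72.2% of cycling ECs held a UMI of it against 0.484% of the others. Ube2c was at 607 and 3.85 CPM (ratio 198, 121 to 341), found in 63.0% and 0.519% of cells. Prc1, which bundles the microtubules of the central spindle, had a ratio of 179 (103 to 333) and Nusap1, which binds spindle microtubules, 142 (66.8 to 347). For Cdca8, a subunit of the chromosomal passenger complex, the ratio was 126. Pbk, a mitotic kinase, gave 55 UMIs in cycling and 4 in other ECs, for a ratio of 357 (127 to 1390). Hmmr, Casc5 and Sgol2a each had 41 or 42 UMIs in cycling ECs and 2 in all others, so their ratios of 408, 432 and 354 have wide intervals, and Esco2 had 35 and 3. Ratios differed between the libraries, with 141 in the healthy and 397 in the 2-week library for Ube2c, 141 and 375 for Prc1, 122 and 330.5 for Nusap1, 212 and 124 for Cenpf and 542 and 286 for Pbk, each of them from at most 14 UMIs in the other ECs of a library. In the healthy library alone Hmmr had a ratio of 232 and Casc5 of 226. At 2 weeks the other ECs held 0 UMIs of both, and 3 UMIs in place of 0 give at least 132 and 154. For Sgol2a the healthy ratio was at least 168 by the same limit, and the 2-week ratio was 66.1 from 2 UMIs in each group. The share of other ECs with a UMI was below 1% for all 10 genes, which is the background against which their detection in cycling ECs can be read.

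Group by group, the spindle, kinesin and kinetochore genes stood furthest apart. The 43 genes of this list in the file summed to 6111 CPM in cycling and 116 CPM in other ECs, and 43 of the 43 were at the higher level in cycling ECs. The G2 and M list, which shares genes with the other lists, summed to 12036 and 1164 CPM, with 49 of 49 genes higher. Cyclins, CDKs and their activators summed to 3538 and 1222 CPM, with 25 of 27 genes higher. Cks2, a small partner of the CDKs, was at 674 and 27.8 CPM (ratio 26.4), and Ccna2, the cyclin of S phase and G2, had a ratio of 122. Ccnd1, a cyclin of early G1, was at 395 and 367 CPM (ratio 1.08), Ccnd2 had a ratio of 0.521 and Ccnd3 had a ratio of 1.17. Ccne1 and Ccne2, cyclins of the passage from G1 to S, were at 16.6 and 1.79 CPM and at 49.8 and 2.82 CPM, under the level minimum.

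S phase genes were higher too, by less. The 43 genes of that list summed to 2549 and 693 CPM, with 42 at the higher level in cycling ECs. Nucleotide synthesis genes summed to 1427 and 433 CPM (16 of 19 higher), with Rrm2, a subunit of ribonucleotide reductase, at a ratio of 90.1 and Tk1, thymidine kinase, at 50.2. Replication licensing and fork genes summed to 2088 and 703 CPM (41 of 43 higher), and Pcna, the sliding clamp of the polymerases, had a ratio of 2.42. Chromatin genes summed to 10821 and 2798 CPM (30 of 33 higher), and tubulins and stathmin to 8341 and 2351 CPM (10 of 12). For condensin and cohesin the sums were 2665 and 690 CPM (17 of 17), and for nuclear envelope genes 2984 and 1045 CPM (15 of 15). These differences lie in the same contrast that the 5 genes drew and are a description of the cells. Hmgb2, a chromatin protein, was at 2254 and 166 CPM (ratio 14.1, with 12.6 in the healthy and 18.9 in the 2-week library). Stmn1, which destabilises microtubules, was at 1660 and 82.3 CPM (20.8, with 19.4 and 24.5), and the tubulin Tubb5 at 2055 and 370 CPM (5.58, with 5.44 and 6.01). These genes were not confined to cycling ECs, as 50.5% of the other ECs held a UMI of Tubb5, 25.7% of Hmgb2 and 12.9% of Stmn1. Tubulin and histone genes have close paralogs whose reads could be split or dropped in counting, so their levels are less certain.

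**Figure D3:**
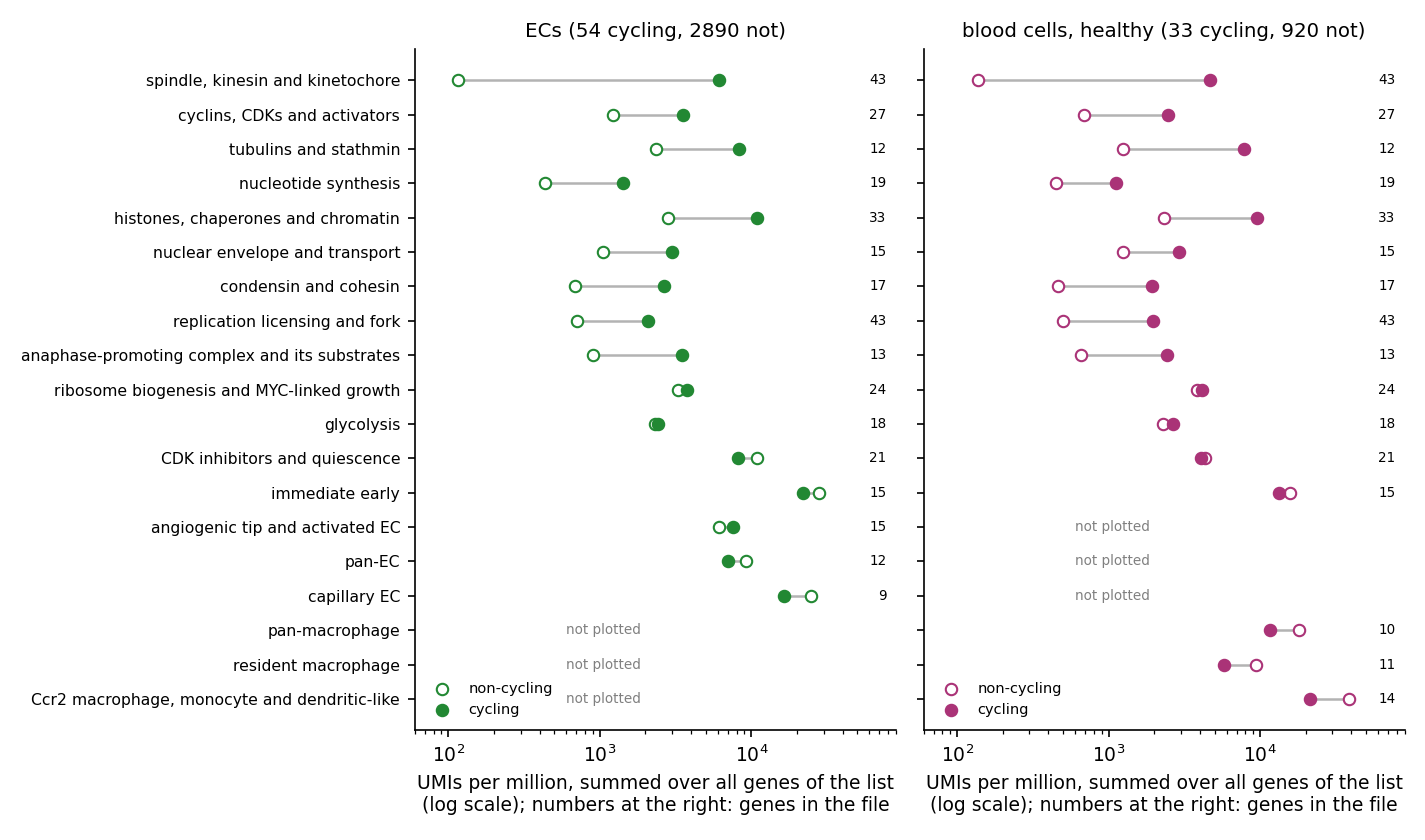
CPM summed over all genes of a list in the file (horizontal axis, log scale) for 19 gene lists (rows), in ECs on the left and in healthy blood cells on the right. Open points are non-cycling and filled points cycling cells, numbers at the right count the genes of a list in the file, and the spindle genes lie furthest apart in both lineages (116 and 6111 in ECs), while the capillary and pan-EC lists in ECs and the macrophage lists in blood cells have the filled point at the left.

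Growth lists differed by less. Ribosome biogenesis and growth genes summed to 3757 CPM in cycling and 3262 CPM in other ECs, with 18 of 24 genes at the higher level in cycling ECs, and glycolysis genes to 2406 and 2327 CPM, with 11 higher and 6 lower. One glycolysis gene, Aldoa, was lower at a ratio of 0.361. Immediate early genes, which respond within minutes to stress and to tissue digestion, were lower, at 21871 and 27808 CPM. Of these 15 genes 14 had the lower level in cycling ECs and 0 passed 2-fold in either direction, with a median ratio of 0.792. The CDK inhibitors and quiescence genes were mixed. Cdkn1a, which encodes the CDK inhibitor p21, was at 1065 and 1038 CPM (ratio 1.03, 0.916 to 1.15), and Cdkn1c, which encodes p57, was at 239 and 512 CPM (0.467). Cdkn2c, which encodes p18, was higher, at 239 and 13.7 CPM (16.7). Txnip was at a ratio of 0.427, and the flow-responsive factors Klf2 and Klf4 were at 0.688 and 0.646.

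Among genes found in at least 10% of other ECs, the smallest ratios were those of Clu, an extracellular chaperone, at 16.6 and 288 CPM (0.0576, 0.0187 to 0.135), followed by Plscr2 (0.148), Cpe (0.159), Mgp, an inhibitor of calcification and of BMP signalling, at 239 and 1207 CPM (0.198, 0.154 to 0.249), Dhrs3 (0.236), Slc39a1 (0.246), Slfn5 (0.253), the taurine transporter Slc6a6 (0.277), the nucleoside transporter Slc28a2 (0.290) and the MHC class II chaperone Cd74 (0.304). A lower level did not always go with fewer cells holding the gene. Mgp was found in 38.9% of cycling and 24.3% of other ECs, Cd74 also in more of the cycling ECs, and Cpe in 11.1% of both. The other genes named here were found in fewer of the cycling ECs. Several of these ratios rested on few UMIs in the 2-week library, where Clu, Mgp and Cd74 gave 0 UMIs in the 12 cycling ECs. In the healthy library alone the ratios were 0.0649 for Clu, 0.218 for Mgp and 0.324 for Cd74, and the 3 UMIs that stand in for 0 limit the 2-week ratios to at most 0.311, 0.0921 and 0.781. The healthy and 2-week ratios were 0.137 and 0.553 for Dhrs3, 0.150 and 0.291 for Cpe, 0.209 and 0.411 for Slc39a1, and 0.198 and 0.496 for Slc6a6. All 9 capillary genes had ratios below 1, with 2 at or below 0.5 and a median of 0.597. The fatty acid carrier Fabp4 was at 12129 and 17819 CPM (0.681), the fatty acid receptor Cd36 had a ratio of 0.613, Gpihbp1, which anchors lipoprotein lipase, 0.612, and Rgcc 0.465. Of 12 pan-EC genes 10 had ratios below 1 (median 0.859), with Flt1 at 0.517 and Emcn at 0.464. These lists held no gene at 2-fold higher. The lower level was not particular to capillary genes. The arterial list summed to 478 CPM in cycling and 913 CPM in other ECs, with 0 of 10 genes higher in cycling ECs. For the venous list the sums were 372 and 660 CPM, with 0 of 7 genes higher. Fabp4 was found in 98.1% of cycling and 97.7% of other ECs. CPM is a share of all UMIs, and these ratios can be read against the median log2 ratio of 0.045 over all genes counted.

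Of the endocardial genes, Npr3 and Cytl1 were nearly missing from cycling ECs. The 6 genes of the endocardial list summed to 56.4 CPM in cycling and 559 CPM in other ECs, with 0 at the higher level in cycling ECs. Npr3, a natriuretic peptide receptor, gave 2 UMIs in cycling and 250 in other ECs, and Cytl1 gave 1 and 1179, for a ratio of 0.013. In cells with at least 3 UMIs of these genes, 0 of 92 healthy ECs were cycling, which allows up to 3.26% by the limit of 3 cells and 3.93% by the exact interval. Among healthy ECs with at least 10 UMIs of Fabp4, Cd36 and Gpihbp1, 3.93% were cycling (40 of 1017, 2.82 to 5.32%), and among the others 1.45% (2 of 138), with overlapping intervals. At 2 weeks the counts were 10 of 1663 and 2 of 126. Arterial ECs, with at least 3 UMIs of Stmn2 and Fbln5, held 4 of 167 cycling cells in the healthy library and 0 of 188 at 2 weeks. These 4 cells had a median of 16302 UMIs and the healthy cells of that class 2445, and the class was not compared at equal depth. ECs with at least 3 UMIs of Vwf, high in veins, held 2 of 60 and 0 of 62. Within the ECs with Fabp4, Cd36 and Gpihbp1 alone (50 against 2630 cells), Clu had a ratio of 0.146 and Mgp of 0.332. The capillary list had a median of 0.527 there, with 0 of 9 genes above 1. Fabp4, Cd36 and Gpihbp1 chose these cells and are on that list, so this median is no separate check of it. In the healthy library the cycling cells of this class had a median of 4914 UMIs and the whole class 2277. Deeper cells reach 10 UMIs at a lower CPM.

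Genes of angiogenic or activated ECs summed to 7585 CPM in cycling and 6078 CPM in other ECs, with 11 of the 15 genes at the higher level in cycling ECs. Apln, the apelin peptide of sprouting ECs, was at 123 and 46.1 CPM (2.68, 1.83 to 3.82), Nid2, a basement membrane protein, had a ratio of 2.41 and Mest 2.32. Pgf, a ligand of the VEGF receptor Flt1, had a ratio of 2.46 but came from 6 cells, 2 of which held 55.3% of its UMIs. In the healthy library 16.2% of ECs with at least 3 UMIs of Apln, Mest and Nid2 were cycling (16 of 99, 9.53 to 24.9%), against 2.46% of the others (26 of 1056, 1.61 to 3.59%). The former cells were deeper, with a median of 5389 against 2129 UMIs. With another draw of the thinning to 1000 UMIs, which left 19 of 1155 healthy ECs cycling (1.65%), the class was set at 1 UMI of these genes in place of 3. Of cells in that class 2.22% were cycling (4 of 180, 0.609 to 5.59%), and of those without such a UMI 1.54% (15 of 975, 0.864 to 2.52%), with overlapping intervals.

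Some transcripts of other cell types in the cycling ECs came from 1 or 2 cells. Haemoglobin Hba-a1 gave 74 UMIs, 72 of them in 1 cell, and Hba-a2 gave 49, 48 of them in 1 cell. Rgs5, a pericyte gene, gave 53 UMIs, 92.5% of them in 2 cells. The 12 genes of the mural list summed to 438 CPM in cycling and 251 CPM in other ECs, with 10 higher and 2 lower in cycling ECs. Cd74 was spread wider, with a UMI in 27.8% of cycling and 12.4% of other ECs, although its level was lower in the former. The part of free RNA or of attached cells in these values was not tested.

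Blood cells could be compared in the healthy library, with 33 cycling cells against 920 others. Of 2548 genes counted, 271 had a ratio of at least 2 (10.6%) and 104 a ratio of at most 0.5 (4.08%), with a median log2 ratio of 0.15. Of the 271 genes, 74 were on the cell cycle lists, and 1 of the 104, beside 101 of all 2548 genes counted. The same limit of the level minimum holds as in ECs. Of all 14091 genes outside the 5 with a UMI in healthy blood cells, 6064 had the higher level in cycling cells. The largest ratios again included genes of the spindle and kinetochore. Nusap1 gave 55 UMIs in cycling and 3 in other blood cells (ratio 318, 103 to 1588), Prc1 29 and 1 (503), and Ube2c 80 and 9 (154, 77.2 to 349). They were followed by Cenpe, a kinetochore motor (195), Ccna2 (156), Cdca3 (121), Cit, citron kinase of the cleavage furrow (117), Cenpf (97.1), Cdc20, an activator of the anaphase-promoting complex (97.1), and Racgap1, of the central spindle (62.8). Each of these 10 genes had a UMI in at most 1.09% of the other blood cells.

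Most cell cycle lists were higher in blood cells too. The 43 spindle genes summed to 4696 CPM in cycling and 138 CPM in other blood cells, with 42 at the higher level in cycling cells, and the G2 and M list to 9314 and 990 CPM, with 48 of 48 detected genes higher. Replication genes summed to 1963 and 504 CPM (39 of 43 higher), chromatin genes to 9511 and 2324 CPM (27 of 29), and tubulins and stathmin to 7812 and 1251 CPM (12 of 12). Nucleotide synthesis genes summed to 1126 and 450 CPM (14 of 19) and cyclin genes to 2463 and 689 CPM (22 of 26). Stmn1 was at 1825 and 75.2 CPM (24.2), Tubb5 at 2062 and 141 CPM (14.6) and Hmgb2 had a ratio of 10.8. Of 18 glycolysis genes 9 were higher and 9 lower, and of 24 ribosome biogenesis and growth genes 15 were higher. Immediate early genes summed to 13285 and 15791 CPM, with 4 of 15 higher.

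Of 1951 genes counted in both lineages, 127 had a ratio of at least 2 in ECs and 200 in blood cells, and 96 in both, which is 75.6% of the EC and 48.0% of the blood genes. At 0.5 or less there were 28 and 53 genes and 6 in both (21.4% and 11.3%). No gene was at least 2 in one lineage and at most 0.5 in the other. The 2 comparisons share no cells, but both were made with the same 5 genes, and cell cycle genes pass the level minimum in both through the cycling cells.

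**Figure D4:**
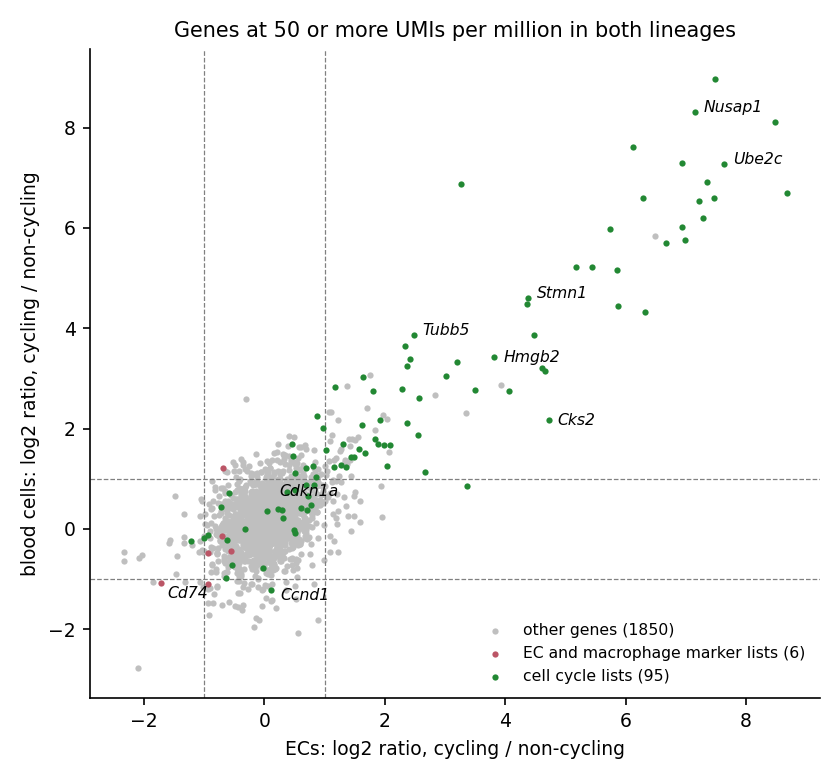
Log2 ratio of cycling to non-cycling cells in ECs (horizontal axis) and in healthy blood cells (vertical axis), 1 point per gene counted in both, with dashed lines at a ratio of 2 and of 0.5. Genes of the cell cycle lists (green) fill the upper right, where 96 genes pass 2-fold in both, and the lower right and upper left beyond the dashed lines are empty.

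Among the genes at lower levels in cycling blood cells, Lyz2, which encodes lysozyme, was at 4920 and 16148 CPM (0.305, 0.283 to 0.328) and the chemokine Ccl6 at 184 and 648 CPM (0.285). The other named genes were the chemokine receptor Ccr1 (0.194), the signalling adaptor Bcl10 (0.239), Rnf149 (0.243), the lectin Clec4n (0.250), Gabarapl2, of autophagosomes (0.259), the urokinase receptor Plaur (0.286), Rnase4 (0.292) and thioredoxin reductase Txnrd1 (0.301). All 11 genes of the resident macrophage list had ratios below 1 (median 0.644) and 3 were at or below 0.5, with Lyve1 at 0.315, Sepp1 at 0.467 and Folr2 at 0.489. Of 9 pan-macrophage genes 0 were above 1 (median 0.650), and the complement genes C1qa, C1qb and C1qc had ratios of 0.650, 0.640 and 0.667. C1qa and Tyrobp helped to place the cells in the lineage.

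The cycling blood cells were of several kinds. Of the 33, 27 held at least 5 UMIs of C1qa, C1qb and C1qc, the complement genes of macrophages, and 4 held at most 1 of these with 286 to 396 UMIs of the MHC class II genes H2-Aa, H2-Ab1 and H2-Eb1, which present antigen. Of these 4 cells, 2 held 23 and 13 UMIs of Cd209a, a marker of monocyte-derived dendritic cells. The cell with 23 stood at the threshold, with exactly 3 UMIs of the 5 genes. Its G2 and M list level of 3.51 UMIs per 10000 was under the median of 8.99 in the other blood cells. After thinning to 1000 UMIs, 0 of 82 cells with under 5 C1q and at least 3 MHC class II UMIs were cycling (up to 4.40% by the exact interval). The last 2 of the 33 cells held 0 C1q UMIs and 10 and 24 UMIs of T and NK cell genes, and these 2 cells held all 22 UMIs of Nkg7. Granulocyte genes were at or near 0 in cycling cells. S100a8 gave 1 UMI against 3258 in other blood cells, and S100a9 gave 0 against 1912. Cells with at least 10 UMIs of these 2 genes were few, at 3, 6 and 13 in order of time, with 0 cycling. Over the blood cells of all 3 libraries, T and NK cells, with at least 3 UMIs of Cd3d, Cd3e, Cd3g and Nkg7, were cycling in 2 of 7, 0 of 1 and 1 of 7 cases.

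Among the C1q cells, those cycling were mostly poor in MHC class II transcripts. Of the 27, 22 held fewer than 3 such UMIs and the other 5 held 12, 21, 27, 34 and 126. In the healthy library 7.21% of C1q cells with fewer than 3 UMIs of these genes were cycling (22 of 305, 4.57 to 10.7%), against 0.931% of those with 3 or more (5 of 537, 0.303 to 2.16%). The intervals did not overlap, and the non-cycling cells of the 2 classes had similar medians of 2662 and 2635 UMIs. With each cell thinned to 1000 UMIs and classed anew, the shares were 2.26% (8 of 354, 0.981 to 4.40%) and 0.426% (2 of 470, 0.0516 to 1.53%), in the same order with overlapping intervals. Within the C1q cells, H2-Ab1 was at 675 and 6004 CPM (0.112, 0.0877 to 0.142), H2-Aa had a ratio of 0.146, H2-Eb1 0.160 and Cd74 0.142, while C1qa was at 0.820 and Pf4 at 0.984. Division by Folr2 and Lyve1, markers of long-resident macrophages, gave shares of 3.25% (8 of 246, 1.41 to 6.31%) with at least 3 UMIs and 3.54% (25 of 707, 2.30 to 5.18%) with fewer. The former cells were deeper, with a median of 3239 against 2474 UMIs, and this division was not repeated at equal depth. These classes were set after the data had been seen.

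**Figure D5:**
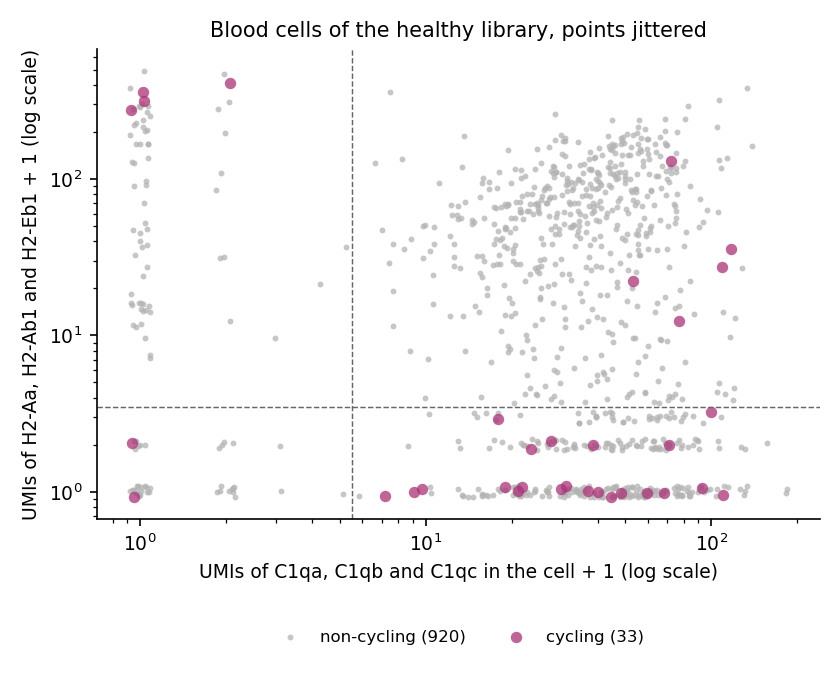
UMIs of the MHC class II genes (vertical axis) against UMIs of the C1q genes (horizontal axis) in each blood cell of the healthy library, each with 1 added, on log axes and jittered. The 33 cycling cells are purple and the 920 others grey, dashed lines mark 5 and 3 UMIs, and 22 cycling cells lie in the lower right field.

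Over all 27 cycling C1q cells, 0 of the 10 resident macrophage genes counted had a ratio above 1 and 1 was at or below 0.5 (3.26% of all genes counted there), with a median ratio of 0.796. The pan-macrophage genes had a median of 0.831, with 2 of 10 above 1. Lower levels of several of these genes were also present in the field low in MHC class II, which was chosen after the data had been seen. Comparing its 22 cycling with its 283 other cells, Lyz2 was at 6698 and 17955 CPM (0.373, 0.341 to 0.408), Ccl6 had a ratio of 0.232, Lyve1 0.250, Folr2 0.441, Sepp1 0.477 and C1qa 0.667. Of the 11 resident macrophage genes counted there, 0 had a ratio above 1 and 5 were at or below 0.5, with a median of 0.593, beside 158 of 2734 genes (5.78%) at or below 0.5 in that comparison. The 10 pan-macrophage genes had a median of 0.723 there, with 1 above 1 and 0 at or below 0.5. Cd74 had a ratio of 0.477 over all blood cells and 0.142 among the C1q cells, a difference that goes with the 4 cycling cells rich in MHC class II.

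FBs had 10 cycling cells in the healthy library and 4 at 2 weeks, too few for a ratio, and are given as values. The same cell cycle genes were high in the healthy ones. Among these genes, H2afz, a histone variant, was at 3523 CPM (3100 to 3988) in cycling and 279 CPM in other FBs, Tuba1b at 3382 and 379, Stmn1 at 2100 and 19.4, Hmgb2 at 1761 and 49.9, Cks2 at 1663 and 17.2, Ube2c at 1437 and 1.72, Cenpa, the histone of the centromere, at 1099 and 4.67, and Prc1 at 1029 and 2.70. The 7 deepest of these 10 cells held 17 to 48 UMIs of the 5 genes, and the other 3 held 5 or 6.

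Several abundant FB transcripts were at a lower level in the cycling FBs. Gsn, which severs actin, was at 6003 and 29072 CPM, the proteoglycan Dcn at 5214 (4696 to 5773) and 14072, Mgp at 1282 and 7455, and the collagen gene Col3a1 at 1635 and 2533. Sparc, a collagen-binding matrix protein, was at 6538 and 6307. Of the genes of activated FBs, Postn was at 1043 and 769 CPM and found in 6 of the 10 cells, Cilp at 860 and 286, and Thbs4 at 1325 and 100 with all UMIs in 4 cells. The EC gene Fabp4 was at 1099 against 248 CPM, from 3 cells, and 1 of the 10 cells held 13 UMIs of the EC marker sum. At 2 weeks Cdc20 gave 13 UMIs over all 4 cycling FBs and 0 in the other 113, and Postn was at 3915 and 3971 CPM. In these 4 cells Fabp4 gave 83 UMIs in 3 cells, and the cell with the most UMIs of the 5 genes also held 8 UMIs of the EC marker sum.

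At 12 weeks the 3 cycling cells were 2 blood cells and 1 cell without any lineage marker. One of the blood cells held 18 UMIs of the 5 genes, with all 5 detected, and the other held 3, all of Mki67. The cell without a lineage held 9 and had more S phase than G2 and M UMIs (38 and 33). No lineage had 20 cycling cells in more than 1 library, so no ratio was computed between the cycling cells of different phases.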

How the data were processed

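Non-CMs of wild-type mouse ventricles were measured by droplet scRNA-seq in 3 libraries, healthy, adaptive hypertrophy and heart failure, with 1 library per phase. The authors prepared 3′ libraries (Chromium v2), and per the submitters' processing notes reads were aligned to mm10 and counted with Cell Ranger 2.0.0. The deposited values are raw UMI counts per gene and cell for 27998 genes, without normalization. Samples were grouped by their titles.

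A minimum of 200 detected genes per cell took out 8, 8 and 10 cells. Cycling cells and lineages were defined by UMI sums, as the report states. The members and gene lists were chosen with earlier results of these data known. No doublet caller was run. Instead, cells with at least 3 UMIs of a second lineage sum were left out as an alternative. For lineages with at least 20 cycling cells, UMIs were summed over cells in libraries with at least 5 of them. Each gene's ratio was the conditional maximum likelihood estimate common to the libraries, with an exact 95% interval. The CPM given for non-cycling cells is the mean over these libraries, weighted by the UMIs of the cycling cells in each. Where a group had 0 UMIs, 3 UMIs over the group took their place. Genes were counted at a mean of 50 CPM or more, the 5 genes left out. Named genes were the 10 largest log2 ratios each way, with 1 CPM added, at least 20 UMIs and 100 CPM in the higher group, a UMI in 20% of cycling or 10% of other cells, and 1 direction in each library with 10 cycling cells. From each list up to 4 genes with the highest level were added, and other genes were chosen after their values were seen. Genes with at least 30 UMIs were ordered by the share of their UMIs in cycling cells. No test was run, since each phase has 1 library and the 5 genes chose the cells. The summing was tested on simulated data. Alternatives were other UMI and gene minimums, thinning, a limit of 10% mitochondrial UMIs, each of the 5 genes left out, depth-weighted controls, means over cells, other level filters and single libraries. The classes by C1q, MHC class II and EC genes, and a minimum of 5 UMIs for the gene ratios, were added after seeing the data. Python 3.11.15, numpy 2.4.6, scipy 1.17.1, pandas 2.3.3 and matplotlib 3.10.9 were used.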

Additional observations from a re-analysis of the deposited data

How the results depend on the processing

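No paired analysis was possible because each phase has 1 library. With 1 library per phase, no replicate could be left out either. Of 134 alternative shares of cycling cells, 124 moved by less than their intervals. With at least 5 UMIs of the 5 genes, the share of all cells was 1.70% in the healthy and 0.403% in the 2-week library, and 0.855% of 2-week FBs, which leaving out Ccnb2 gave too. Thinning each cell to 1000 UMIs gave 1.08% of all healthy cells, 2.08% of healthy ECs, 1.26% of healthy blood cells, 0.308% of all 2-week cells and 0.229% of 2-week ECs. Another draw of the thinning, added after seeing the data, gave 1.65% of healthy and 0.382% of 2-week ECs. The numbers of genes past 2-fold moved with the level filter and with the library used. In ECs, a level of 20 CPM gave 491 higher and 276 lower genes, 100 CPM gave 94 and 38, means over cells gave 327 and 159, and the 2-week library alone gave 502 and 274. In blood cells, 20 CPM gave 768 and 320, 100 CPM gave 99 and 58, and C1q cells low in MHC class II gave 158 lower genes. Of 340 alternative ratios of the 40 named genes, 0 were on the other side of 1 and 315 lay within the interval. These genes were chosen as the largest ratios in the same libraries, with 1 direction required in each library with enough cycling cells. A single library could thus not reverse them, and the other alternatives drew largely on the same cells. The count of 0 is therefore no separate check of direction. The number of cycling cells limits the heart failure library (3 cells), FBs (14) and mural cells (2), where single cells set values.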
